A study of Mus musculus with 24 samples.

Results

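The abundant structural noncoding RNA genes described here are Rn18s-rs5, Mir6236, Gm23935, Lars2, Rmrp, Rpph1 and Rn7sk, 7 of the 49568 gene symbols counted. They were chosen by their counts in these same libraries, where ribosomal RNA (rRNA) models stood far above the rest in a few libraries, so their levels and their movement together are given as a description. The counts came from hippocampi of male mice aged 21 to 23 months, in 4 groups of 6 libraries: wild-type mice in standard housing (WTSH), wild-type mice in enriched housing (WTEE), and mice carrying a kinase-dead MSK1 in standard (KDSH) or enriched housing (KDEE). Enrichment began at 18 months. The MSK1 KD mice carried a knock-in point mutation in the kinase that abolishes its activity without deleting the gene, so the level of Rps6ka5, the gene of MSK1, does not check the labels: it lay between 621.0 and 1127 normalised counts over the 24 libraries. The libraries were numbered 1 to 24 across the groups, and each number names 1 library.

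Ribosomal RNA forms the core of the ribosome and is the bulk of the RNA in a cell. RNase MRP RNA (Rmrp) is the RNA of an enzyme that cuts precursor rRNA, RNase P RNA (Rpph1) is the catalytic RNA that trims the 5′ ends of precursor tRNA, and 7SK RNA (Rn7sk) holds the elongation factor P-TEFb in an inactive particle. All of these RNAs lack the poly(A) tail of most mRNAs, and the libraries were made from RNA pulled down on poly-T beads. Lars2 is the exception among the genes: it codes for the mitochondrial leucyl-tRNA synthetase, and it is listed with the rRNA models for an rRNA-like stretch in its transcript.

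The models are short and their sequences bear on which reads they can take. Positions are those of GENCODE M21 on GRCm38. The counts were made with another annotation release of the same build, in which the overlaps between genes may differ.

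Gm23935 is annotated as a miRNA of 57 bases at chr16:11144125-11144181 on the plus strand, inside Zc3h7a on the opposite strand and outside its exons. It is shown with the 2 copies that moved most closely with it, Gm24270 at chr9:56223715-56223771 and Gm24187 at chr13:9834469-9834525, both on the minus strand. A capital marks a base that differs from Gm23935.
Gm23935: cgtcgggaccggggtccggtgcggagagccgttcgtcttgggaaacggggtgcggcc
Gm24270: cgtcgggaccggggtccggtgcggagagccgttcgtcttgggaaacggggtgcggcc
Gm24187: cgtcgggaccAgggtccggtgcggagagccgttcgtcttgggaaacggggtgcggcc
Gm24270 was identical to Gm23935 over all 57 bases, and Gm24187 carried the single change G11A, counted from the 5′ end of Gm23935.

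No rRNA sequence of the large subunit was among the references used here, so the resemblance of Mir6236, Gm23935 and Lars2 to rRNA was not aligned, and they are called rRNA models only as they were listed. In Lars2 a stretch shared with a noncoding gene lies in the 3′ UTR (chr9:123461676-123462664, plus strand). Bases 3278 to 3349 of its main transcript matched bases 179 to 250 of Gm15564, an antisense noncoding gene, at 98.6% identity over 72 bases. A window of 30 bases from each is shown, with the single differing base in capitals (A3330T, counted along the Lars2 transcript).
Lars2: gaacgtgagctgggAttagaccgtcgtgag
Gm15564: gaacgtgagctgggTttagaccgtcgtgag
The Lars2 window is chr9:123462086-123462115. Another gene, AA474408, matched a longer part of the same region, bases 3163 to 3349 of Lars2, at 80.1% identity. No pair among the models of Gm23935, Lars2, Rmrp, Rpph1 and Rn7sk and of the 18S rRNA, with the 18S transcript at the Rn18s-rs5 locus in place of Rn18s-rs5, shared a match in a BLAST search of these transcripts (0 matches). The 18S pseudogene Rn18s-rs5 is placed by RefSeq at chr17:39846354-39848202, 1849 bases long.

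The 3 RNAs of RNase MRP, RNase P and the 7SK particle each overlap or resemble another gene. Rmrp is a ribozyme model of 271 bases at chr4:43492788-43493058 on the minus strand, and 124 of them, in capitals, are shared with an exon of Ccdc107 on the opposite strand.
Rmrp: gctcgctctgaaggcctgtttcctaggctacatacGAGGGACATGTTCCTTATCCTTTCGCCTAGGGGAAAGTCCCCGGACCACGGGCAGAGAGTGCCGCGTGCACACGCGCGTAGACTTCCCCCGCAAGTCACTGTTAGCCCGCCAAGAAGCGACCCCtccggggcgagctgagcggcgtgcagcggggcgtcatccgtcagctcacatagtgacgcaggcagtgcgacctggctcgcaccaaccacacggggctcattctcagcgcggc
Rpph1 (chr14:50807449-50807767, minus strand, 319 bases) shares 233 bases with an exon of Ccnb1ip1 on the same strand, bases 36 to 268, and bases 269 to 319, which lie outside that exon as do bases 1 to 35, are shown. Rn7sk (chr9:78175303-78175633, minus strand, 331 bases) is identical to Gm24447 over its first 241 bases, and the rest, bases 242 to 331, is shown.
Rpph1: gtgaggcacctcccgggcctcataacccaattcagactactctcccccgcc
Rn7sk: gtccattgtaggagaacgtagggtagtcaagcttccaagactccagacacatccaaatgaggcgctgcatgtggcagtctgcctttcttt
The counting ignored strand, so reads in the bases shared by Rmrp and Ccdc107 could not be told apart by strand. Rpph1 and Ccnb1ip1 lie on the same strand, so strand would not separate their shared bases. Rn7sk and Gm24447 lie on different chromosomes, and only uniquely mapped reads were counted. Reads within their identical bases may therefore have gone uncounted, which was not tested. Ccnb1ip1 held 9 counts and Gm24447 held 32 counts over all 24 libraries together. The longest run of A was 2 bases in Rpph1, 3 in Gm23935, Rmrp and Rn7sk and 6 in Lars2, and 37.7% of all 141767 annotated transcripts held a run of 6 or more.

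Depth lay between 15800187 and 71907130 counts on genes per library (median 47097298). The study left out WTSH 4, KDSH 6 and WTSH 7 for rRNA content and low correlation within their groups, which left 21 libraries. These 3 stood apart in other ways too: reads in no gene were 32.2%, 16.4% and 33.0% against 8.41% to 15.7% in the others, and reads in more than 1 gene were 16.97%, 9.40% and 17.2% against 4.14% to 6.57%. KDSH 6 also held the highest summed level of the pituitary markers Gh, Prl, Pomc and Cga, 19181 normalised counts against a median of 68.0 in the 21 libraries, whereas the summed level of hippocampal neuron markers was 276367 in it and 283726 in the median library. KDSH 8 held the highest pituitary sum of the 21, 10851, and there Rn18s-rs5 was among the lowest, at 9529. WTSH 2, which decides several comparisons given later, held 283726 for the neuron markers and 66.0 for the pituitary markers. Of the 21 libraries it had the highest share of reads in no gene, 15.7%, and 5.60% of its reads lay in more than 1 gene. Rn18s-rs5, Mir6236, Gm23935 and Lars2 together took 2.48% of its counts on genes, also the highest share of the 21. Levels below are counts divided by the TMM scaling factor of the library, scaled to the mean library.

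Rn18s-rs5, the 18S rRNA model, ranged 76.9-fold over the 21 kept libraries and far higher in the 3 others. It reached 6361404 normalised counts in WTSH 4, 7153226 in WTSH 7 and 1400032 in KDSH 6. In the 4 kept WTSH libraries it was 356870 in number 2, 5215 in number 5, 25344 in number 19 and 10041 in number 23. In the 5 kept KDSH libraries it was 61421 in number 1, 26465 in number 3, 9529 in number 8, 75529 in number 18 and 11383 in number 24. Every one of the 3 left-out libraries lay above every kept one, and WTSH 2 lay above the 20 other kept ones.

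In the enriched groups Rn18s-rs5 ran from 47942 over a median of 122926 to 335876 in WTEE, and from 4639 over a median of 43995 to 180676 in KDEE. The WTEE mean was 147936 ± 99137 (SD, n = 6). The KDEE mean was 56416 ± 64081 (SD, n = 6). Over the kept libraries the mean was 99367 ± 171883 in WTSH (SD, n = 4) and 36866 ± 30011 in KDSH (SD, n = 5), so that in WTSH and KDEE the SD exceeded the mean. The ranges of all 4 groups overlapped.

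For each 1000 counts of Gm23935 the kept libraries held a median of 1420 counts of Rn18s-rs5. Gm23935 stood at 3758092 normalised counts in WTSH 4, 3219780 in WTSH 7 and 602524 in KDSH 6. The kept WTSH libraries held 370548 in number 2, 4373 in number 5, 14604 in number 19 and 5509 in number 23. The same library, WTSH 2, was again the highest of the 21 and its group the widest.

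In the kept KDSH libraries Gm23935 was 80200 in number 1, 47072 in number 3, 5231 in number 8, 53425 in number 18 and 7212 in number 24. It ran from 57088 to 138837 in WTEE and from 4580 over a median of 26966 to 113716 in KDEE. The lowest WTEE library lay above 5 of the 6 KDEE libraries but below KDEE 15, so these groups overlapped as well.

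Lars2 followed with 3188121 normalised counts in WTSH 4, 2991332 in WTSH 7 and 517931 in KDSH 6. It held 364847 in WTSH 2 and 5263, 11656 and 5414 in WTSH 5, 19 and 23. WTEE ran from 49368 over 76837 to 132177, and KDEE from 5296 over 19591 to 85124. Beside this, the median log2 difference of the 19 mitochondrial aminoacyl-tRNA synthetase genes from their median over the 21 libraries was -0.01 in WTSH 4, -0.07 in WTSH 7 and 0.02 in KDSH 6, close to -0.01, -0.01 and 0.01 over all genes tested.

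Mir6236 was the least abundant of the rRNA models, with 145440 normalised counts in WTSH 4, 368573 in WTSH 7 and 80179 in KDSH 6. WTSH 2 held 47614, and WTSH 5, 19 and 23 held 537.2, 1108 and 447.0. It ran from 5411 to 17033 in WTEE and from 351.0 to 8795 in KDEE. In WTSH 4 it stood lower against the other rRNA models than in WTSH 7, which the ratios below give in numbers.

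Together Rn18s-rs5, Mir6236, Gm23935 and Lars2 took 22.7% of the counts on genes in WTSH 4 (95% Wilson interval 22.69 to 22.73), 22.5% in WTSH 7 (22.45 to 22.49) and 5.46% in KDSH 6 (5.451 to 5.465). In the 21 other libraries they took 0.0329% to 2.48%, with a median of 0.271%. The intervals cover counting error only.

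Rn7sk and Rpph1 rose with the rRNA models in the 3 left-out libraries. Rn7sk stood at 49531 normalised counts in WTSH 4, 60878 in WTSH 7 and 15168 in KDSH 6. In the kept WTSH libraries it was 2312 in number 2, 24.1 in number 5, 196.9 in number 19 and 51.2 in number 23. The 3 left-out libraries lay above every kept one, and WTSH 2 was the highest of the kept ones.

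Rn7sk ran from 129.3 over 1137 to 2062 in WTEE, from 55.3 over 93.9 to 572.4 in the 5 kept KDSH libraries, and from 32.9 over 566.3 to 1898 in KDEE. WTEE 17 was the lowest of its group at 129.3, although its Rn18s-rs5 level of 98904 lay within the range of the other WTEE libraries. Its Rpph1 was also the lowest of the group, at 23.1.

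Rpph1 was 12637 normalised counts in WTSH 4, 16301 in WTSH 7 and 4418 in KDSH 6. The kept WTSH libraries held 1834, 1.85, 43.1 and 14.9 in numbers 2, 5, 19 and 23. It ran from 23.1 over 245.1 to 562.5 in WTEE, from 10.9 over 88.7 to 109.0 in the kept KDSH libraries and from 9.78 over 145.3 to 613.4 in KDEE. In WTSH 5 the count was at or below 3, the floor used here, the only such library of the 21.

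Rmrp was assigned few reads in these libraries. It had 0 counts in 17 of the 21 kept libraries and at most 4 counts in the other 4, and 31 in KDSH 6, 30 in WTSH 7 and 2 in WTSH 4. Against a floor of 3 counts in the kept libraries, taken as the highest floor of these libraries, 4.83 normalised counts, it was at least 7.73-fold higher in KDSH 6 and at least 16.3-fold higher in WTSH 7. WTSH 4 was under the floor and gets no fold, although Rn18s-rs5 was high there. Rmrp failed the filter on low counts and had no test. Ccdc107, the gene on the opposite strand, ran from 633 to 1367 normalised counts in the 21 libraries and was 562.3, 605.5 and 867.8 in WTSH 4, WTSH 7 and KDSH 6. Bases 36 to 159 of Rmrp lie in an exon of Ccdc107, and the counting ignored strand. Reads in those bases could not be told apart, so the low count of Rmrp does not show that the RNA was absent. Rpph1 shares more of its bases with another gene, 233 of 319, and held 3371, 6219 and 3671 counts in WTSH 4, WTSH 7 and KDSH 6. Rn7sk shares 241 of 331 bases with Gm24447, so the levels of Rpph1 and Rn7sk carry a like limit. How many reads of these 3 RNAs went uncounted was not tested.

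**Figure D1:**
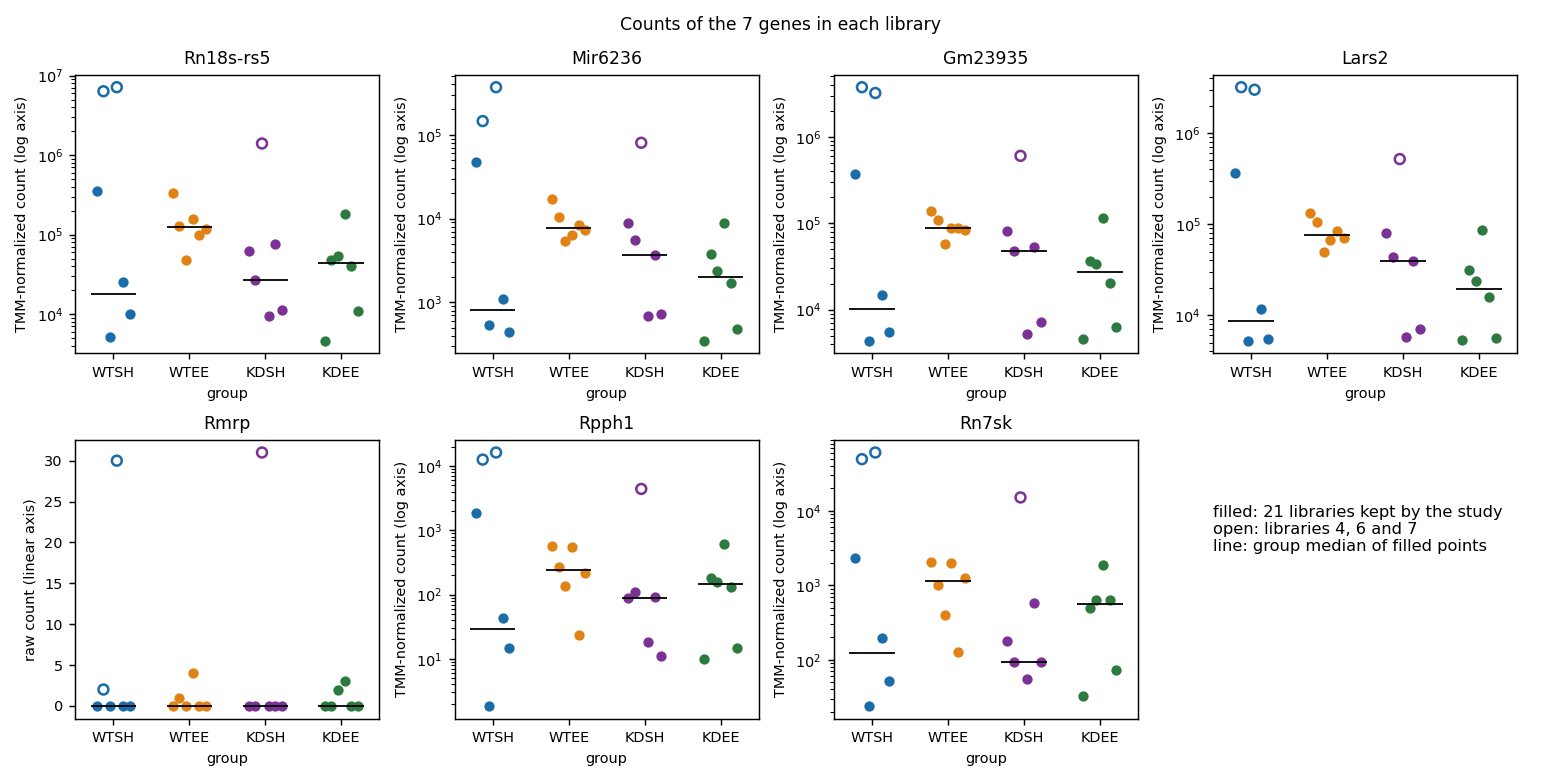
Level of each gene in each of the 24 libraries by group (y axis, normalised count on a log axis; for Rmrp the raw count on a linear axis; filled points, the 21 kept libraries; open points, WTSH 4, KDSH 6 and WTSH 7; line, median of the filled points). The open points stand above all filled points of every gene but Rmrp, where WTSH 4 holds 2 counts.

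Set against the median of the other 21 libraries, the 3 libraries separated the members in size but not in direction. Rn18s-rs5 was 132.7-fold, 149.2-fold and 29.2-fold of the median in WTSH 4, WTSH 7 and KDSH 6. Rn7sk came to 125.2-fold, 153.9-fold and 38.3-fold, and Rpph1 to 115.9-fold, 149.5-fold and 40.5-fold. Gm23935 (79.8-fold, 68.4-fold and 12.8-fold) and Lars2 (80.7-fold, 75.7-fold and 13.1-fold) were lower, and Mir6236 was 38.7-fold, 98.1-fold and 21.3-fold. The 3 libraries lay above all 21 others in 6 of the 6 members that passed the filter, against 0.283% of 19817 genes tested; the members were chosen on these libraries, so the count is not evidence about them.

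Mitochondrial rRNA, which the mitochondrial genome encodes and which is polyadenylated, moved less. mt-Rnr1 was 6.78-fold, 6.91-fold and 2.501-fold of the median of the 21 in WTSH 4, WTSH 7 and KDSH 6, and mt-Rnr2 6.36-fold, 7.002-fold and 2.52-fold. In the 21 libraries mt-Rnr1 ran only from 79171 to 202324 normalised counts, a spread of 0.30 (SD, log2), against 1.88 for Rn18s-rs5. Gm26917, a gene next to the 18S locus, was nearer to the rRNA models at 60.0-fold, 60.6-fold and 12.7-fold.

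**Figure D2:**
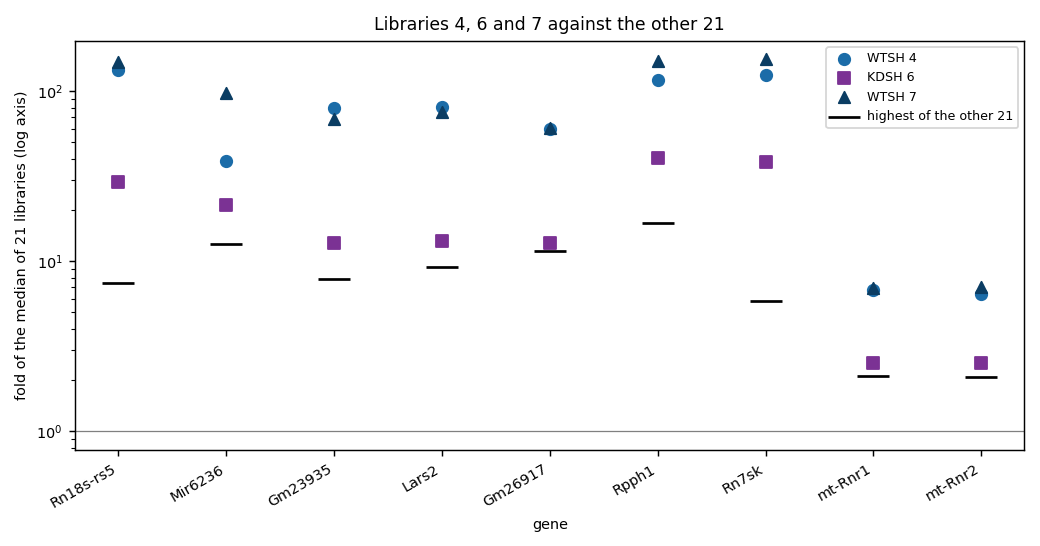
Level in WTSH 4, KDSH 6 and WTSH 7 as fold of the median of the other 21 libraries (y axis, log) for 6 members and 3 other rows (x axis), with the highest of the 21 as a bar. Rn7sk and Rpph1 reach folds like that of Rn18s-rs5, and mt-Rnr1 and mt-Rnr2 stay under 10.

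Whether a structural RNA followed the rRNA models across the 21 kept libraries was read from the correlation of log2 normalised counts, without a test, because the members were named for this and the libraries share scaling. With Rn18s-rs5, Gm23935 gave r = 0.96 (Spearman 0.98), Lars2 0.95 (0.95), Mir6236 0.94 (0.92), Rn7sk 0.93 (0.92) and Rpph1 0.91 (0.89), each over 21 libraries. Without the 2 libraries farthest from the median of Rn18s-rs5 these were 0.95, 0.94, 0.93, 0.90 and 0.88, and after taking out the group means 0.96, 0.94, 0.93, 0.92 and 0.92. Over all genes with a mean of at least 50 normalised counts, the median r with Rn18s-rs5 was 0.00 and the 95th percentile 0.505. Rn7sk and Rpph1, which are not rRNA, rose and fell with the 18S model at an r somewhat below that of Gm23935, Lars2 and Mir6236. Their ratios to it also varied more, as given below. Rmrp, at 0 in most libraries, gave no value.

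The closest pairs were other ones. Mir6236 and Lars2 gave r = 0.995, Gm23935 and Lars2 0.994 and Mir6236 and Gm23935 0.988, with an SD of the log2 ratio of 0.23, 0.22 and 0.31. The SD of the log2 ratio to Rn18s-rs5 was 0.51 for Gm23935, 0.61 for Lars2, 0.68 for Mir6236, 0.80 for Rn7sk and 1.10 for Rpph1. Rn7sk and Rpph1 gave 0.94 with each other and 0.81 and 0.86 with Lars2. The members thus fell in order: Mir6236, Gm23935 and Lars2 moved as one, Rn18s-rs5 less tightly with them, and Rn7sk and Rpph1 more closely with Rn18s-rs5 than with Lars2.

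**Figure D3:**
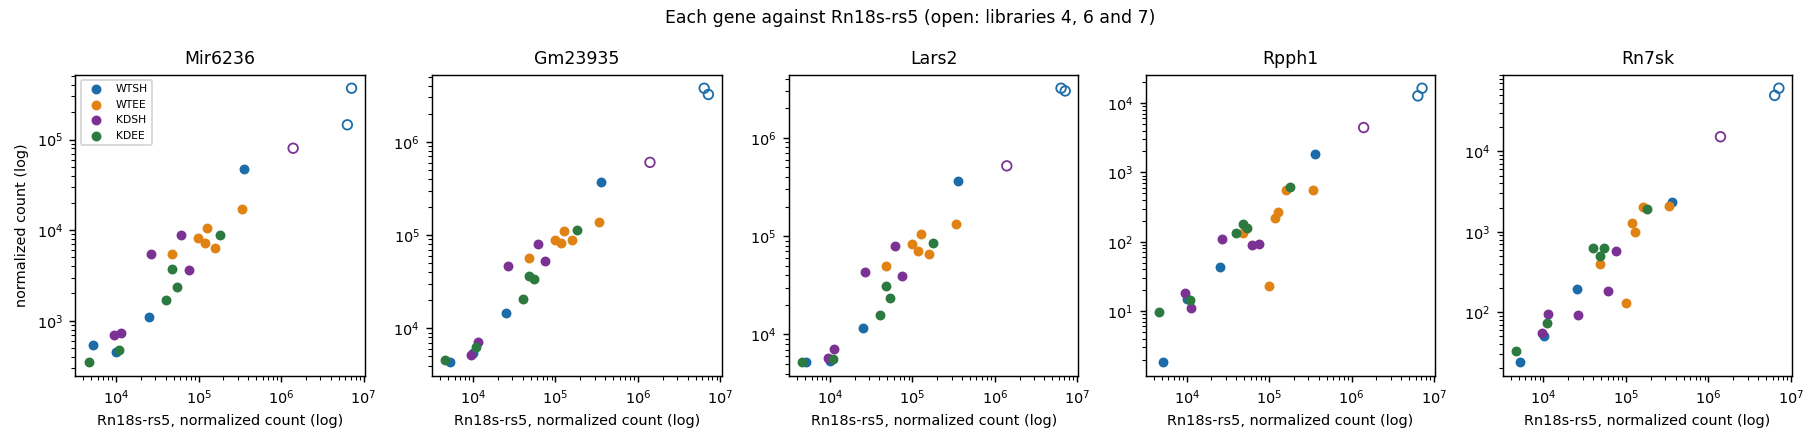
Normalised counts of 5 members (y axes, log) against Rn18s-rs5 (x axes, log) in 24 libraries, coloured by group, with WTSH 4, KDSH 6 and WTSH 7 open. All 5 rise with Rn18s-rs5 (r = 0.91 to 0.96 over the 21 filled points), and WTEE 17 lies low for Rpph1 and Rn7sk.

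Ratios within a library need no scaling and show the same order. Lars2 held 700.4 to 1204 counts per 1000 of Gm23935 in the 21 libraries (median 918.5), a 1.72-fold range, and 848.3, 929.0 and 859.6 in WTSH 4, WTSH 7 and KDSH 6. Mir6236 held 68.1 to 131.6 per 1000 of Gm23935 (median 94.2), and 114.5 and 133.1 in WTSH 7 and KDSH 6, but 38.7 in WTSH 4, below all 21. Rn18s-rs5 held 562.2 to 2419 per 1000 of Gm23935, a 4.30-fold range.

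Rn7sk held 1.31 to 15.7 counts per 1000 of Rn18s-rs5 (median 7.58), an 11.99-fold range, with 7.79, 8.51 and 10.8 in WTSH 4, WTSH 7 and KDSH 6. Rpph1 held 0.234 to 5.14 (median 1.93), a 21.97-fold range, with 1.99, 2.28 and 3.16 in the same 3 libraries. The lowest value of both was in WTEE 17. KDSH 1 and KDSH 3 were the next lowest for Rn7sk, at 2.96 and 3.51, while KDSH 3 held 4.12 Rpph1 counts per 1000 of Rn18s-rs5. The 3 left-out libraries thus lay inside the kept range of both ratios.

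**Figure D4:**
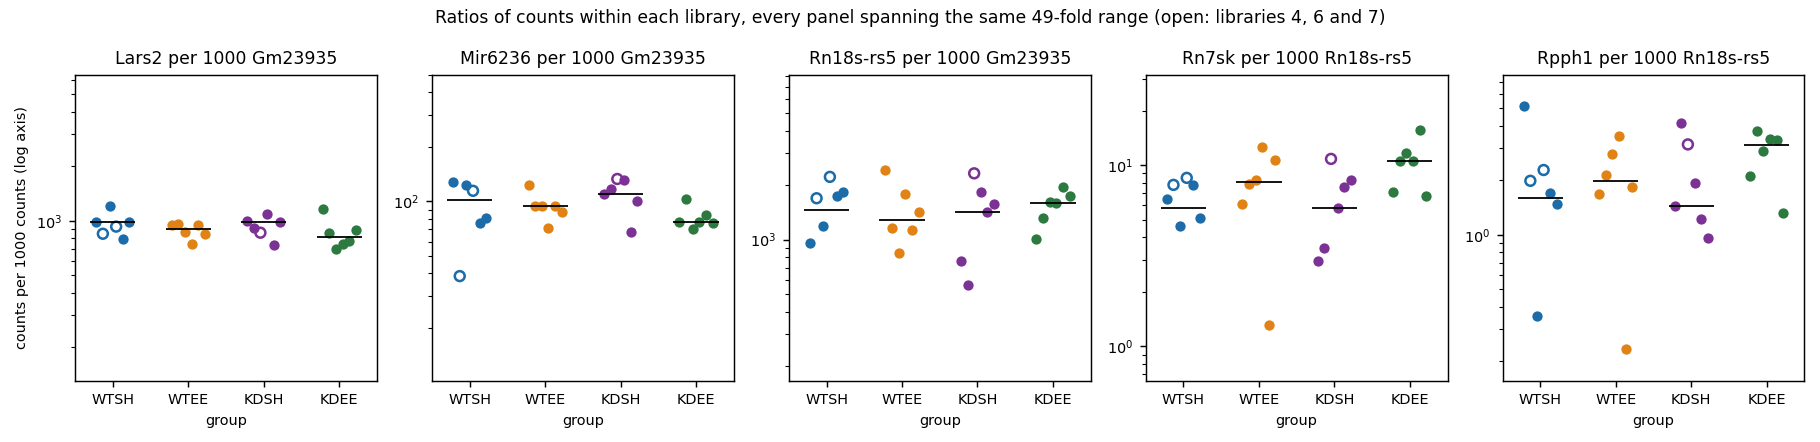
Counts of one gene per 1000 counts of another in each library (y axes, log, each spanning the same 49-fold range) by group, with WTSH 4, KDSH 6 and WTSH 7 open and the median of the kept libraries as a line. Lars2 to Gm23935 is flat at 700.4 to 1204, and the ratios of Rn7sk and Rpph1 to Rn18s-rs5 spread most.

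Genes with a mean of at least 50 normalised counts numbered 14874, members included. Outside the members, the 3 most like Gm23935 over the 21 libraries were Gm24270 (r = 0.997), Gm24187 (0.995) and Gm15564 (0.98). The same 3 genes were the most like Rn18s-rs5, Mir6236, Lars2 and Rpph1, with r between 0.85 and 0.99. Gm24270 ran from 186.2 to 18697 normalised counts in the kept libraries, and reached 128706 in WTSH 4. For Rn7sk the first was Gm22513 (r = 0.94), a snRNA gene, followed by Gm24270 (0.85) and Gm24187 (0.82). AA474408, which like Gm15564 matched Lars2, gave r = 0.54 with Gm23935. It ran from 50.3 to 114.1 normalised counts in the kept libraries, and held 101.2, 81.3 and 90.3 in WTSH 4, WTSH 7 and KDSH 6.

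The copies of Gm23935 were counted very unequally, although they share its sequence. In WTSH 4 the raw count was 1002518 for Gm23935, 34334 for Gm24270, 12241 for Gm24187, 64 for Gm25911 and 1 for Gm24245, which is identical to Gm23935 over 57 bases. Near-identical copies make the count of any single one uncertain. Zc3h7a, the gene around Gm23935, ran only from 1677 to 2300 normalised counts in the 21 libraries and was 2313 in WTSH 4.

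Of 23 other structured noncoding RNAs listed and found in the files, 1, Rny1, passed the filter on low counts. This Y RNA held 78.7, 393.2 and 156.5 normalised counts in WTSH 4, WTSH 7 and KDSH 6 against 0 to 19.8 in the other 21. Rny3, a second Y RNA, held 26.2, 311.9 and 134.8 against 0 to 12.1, and Vaultrc5, a vault RNA, 11.2, 188.7 and 73.4 against 0 to 8.99. Rnu3a, the U3 small nucleolar RNA that acts in rRNA processing, held 82.5, 256.9 and 86.7 against 0 to 20.7. The raw counts behind these are low in WTSH 4 (3 to 22). Rn7s1, Rn7s2 and Rn7s6 held at most 3 counts in any library. Among the rRNA models listed, Rn5s, Gm42418 and AY036118 held 0 counts in all 24. RefSeq gives Gm42418 as a synonym of Rn18s-rs5. The rRNA transcript at the Rn18s-rs5 locus matched Gm42418 at 100% identity over 1244 bases and AY036118 at 100% over 923 bases. The 0 counts of Gm42418 and AY036118 are therefore not read as a lack of such reads. Whether naming or shared bases gave these counts was not tested.

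The genes of proteins that make or work with these RNAs were read from lists fixed for this description. None of the 11 RNase P and RNase MRP subunits, 7 proteins of the 7SK particle and P-TEFb, 13 RNA polymerase I, 18 rRNA processing or 30 RNA polymerase III genes had all 3 left-out libraries above the others, beside 0.283% of all genes tested, so the count says nothing particular of these lists. Their list medians in WTSH 4 lay between -0.03 and 0.04 (log2 difference from the median of the 21), in WTSH 7 between -0.05 and 0.01 and in KDSH 6 between -0.02 and 0.22, beside -0.01, -0.01 and 0.01 over all genes tested. In the edgeR fit of the 21 libraries none of the lists held a called gene. That fit called 0 of 20187 genes in each comparison of groups, so no list could hold one. The lists were not read against the calls of DESeq2.

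The comparisons of groups asked whether housing or the MSK1 mutation was accompanied by a change in these RNAs. In the 21 libraries 0 of 20187 genes were called in each of the 5 contrasts (0%, edgeR's quasi-likelihood test with Benjamini-Hochberg adjustment, adjusted p under 0.05 and log2 fold change over 0.38), although 202 to 2345 genes had an unadjusted p under 0.05. No member was called. The DESeq2 Wald test called 2 of 37779, 14 of 16167, 0 of 37779, 118 of 26970 and 20 of 26250 genes in the same contrasts, and no member. With so small a share of all genes called, the lack of a member says nothing particular about the members.

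In enriched against standard-housed wild-type mice, Rn18s-rs5 differed by 0.57 ± 0.99 and Rn7sk by 0.82 ± 1.04 (log2 fold change ± SE), while Mir6236 was at -0.45 ± 1.04, Gm23935 at -0.07 ± 1.01, Lars2 at -0.20 ± 0.99 and Rpph1 at -0.69 ± 1.11. The adjusted p-values (edgeR) lay between 0.76 and 0.98. WTSH 2 decided these values. Without it all 6 stood between 3.45 (Rn18s-rs5) and 3.85 (Rpph1), with adjusted p between 0.35 and 0.44, and with all 24 libraries they stood between -4.11 (Rpph1) and -3.36 (Mir6236), with adjusted p = 0.25. With all 24 libraries, 1 of 19817 genes was called in this contrast (0.00505%) and 0 in the other 4 (0%), and no member.

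In enriched against standard-housed MSK1 KD mice, Rpph1 was at 1.54 ± 1.17 and Rn7sk at 1.65 ± 1.02, and Rn18s-rs5, Mir6236, Gm23935 and Lars2 at 0.61, -0.42, -0.11 and -0.34, with SE of 0.92 to 0.99 (adjusted p 0.50 to 0.96, edgeR). With KDSH 6 in the fit of all 24 libraries, Rn18s-rs5 stood at -2.23, Rpph1 at -2.05 and Rn7sk at -2.08. The directions of these 3 therefore rest on KDSH 6 being left out. That of Rn18s-rs5 also turned without KDEE 15, to -0.23, and those of Mir6236, Gm23935 and Lars2 turned without KDSH 1, to 0.14, 0.34 and 0.21.

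In standard housing, MSK1 KD against wild type gave values from -1.36 ± 1.06 (Gm23935) to -2.88 ± 1.26 (Rpph1), with adjusted p = 0.99998 for all 6 (edgeR). Without WTSH 2 all 6 turned, to between 1.13 (Rn7sk) and 2.47 (Mir6236), with adjusted p = 0.99995 (edgeR). In enriched housing, wild type against MSK1 KD gave 1.39 ± 0.89 for Rn18s-rs5, 1.65 ± 0.96 for Mir6236, 1.397 ± 0.92 for Gm23935 and 1.60 ± 0.91 for Lars2, and 0.66 ± 1.03 for Rpph1 and 0.85 ± 0.92 for Rn7sk (adjusted p = 0.96 for each, edgeR). No library left out turned the sign of these values, and none brought them past the threshold.

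The interaction of housing and genotype was near 0 for the rRNA models (-0.04 ± 1.33 for Rn18s-rs5, -0.03 ± 1.44 for Mir6236, 0.04 ± 1.39 for Gm23935, 0.14 ± 1.36 for Lars2), and -2.23 ± 1.61 for Rpph1 and -0.83 ± 1.42 for Rn7sk (adjusted p = 0.9999 for each, edgeR). Without WTSH 2 the values ran from 1.99 (Rn7sk) to 4.12 (Mir6236), with adjusted p from 0.22 to 0.9999 (edgeR). With SE of about 1 on the log2 scale, differences of 2-fold between groups were not detectable for these genes.

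**Figure D5:**
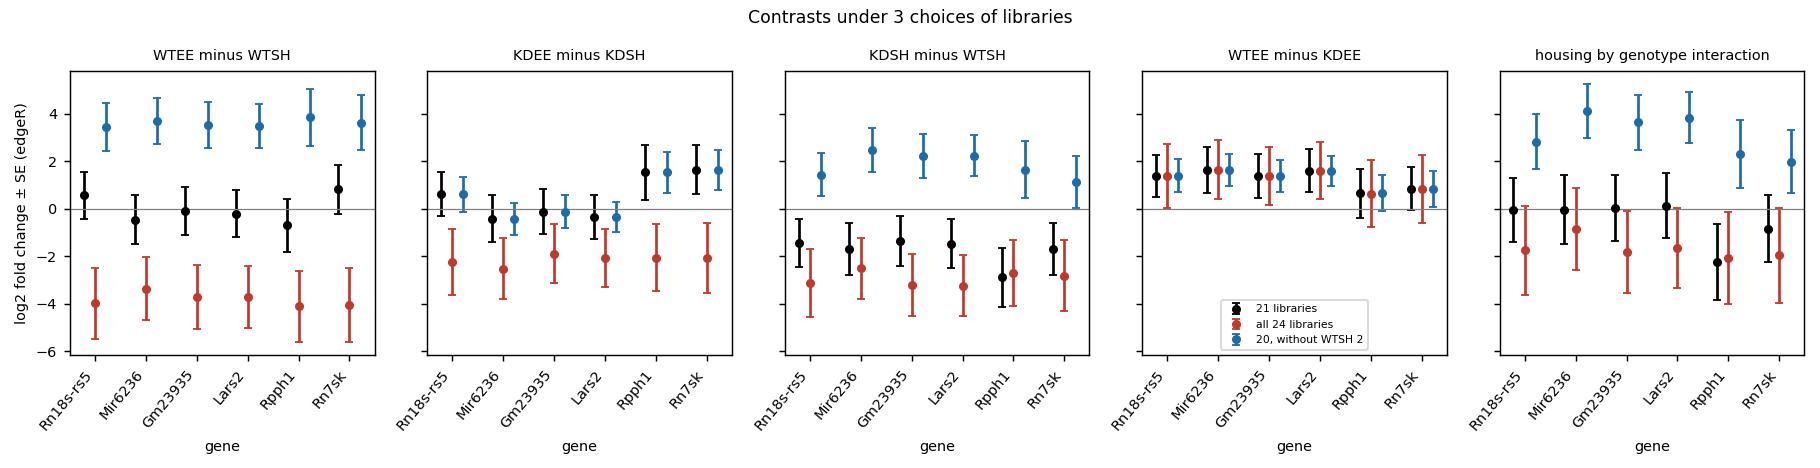
Log2 fold change of 6 members (x axis) in the 5 contrasts with 21 libraries (black), all 24 (red) and 20, without WTSH 2 (blue). Bars are an SE derived from the fold change and the F statistic of edgeR. Enriched against standard-housed wild type lies near 0, below -3 and above 3 under the 3 choices. The choices change no WTEE or KDEE library, so WTEE against KDEE could hardly move.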

How the data were processed

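The deposited counts are raw reads per gene symbol of 24 hippocampal RNA-seq libraries, 1 per mouse. The authors trimmed paired reads, aligned them to GRCm38 with STAR 2.5 and counted uniquely mapped reads, ignoring strand, with HTSeq 0.6.1p1. RNA was pulled down on poly-T beads first.

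Libraries were scaled by TMM (edgeR 4.0.16, R 4.3.3). The group fit used 21 libraries, as the study left out WTSH 4, KDSH 6 and WTSH 7, with all 4 groups in one model, edgeR's filter on low counts and Benjamini-Hochberg adjustment over all genes tested; DESeq2 1.42.0 was an alternative. The SE of a log2 fold change was derived as its absolute value divided by the square root of the quasi-likelihood F statistic. Correlations used log2(normalised count + 0.5). Sequences were compared with BLAST 2.17.0; that of Mir6236 is not reported here. Alternatives were another scaling, no filter, all 24 libraries and leaving out each library. Tests were tried on simulated data. Named genes are the 7 members, the listed partner genes, the 3 genes most like each member and Rps6ka5. The members and lists were chosen with earlier results of these data known. Lane was not analysed here. Replicates are hippocampi of separate mice.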

Additional observations from a re-analysis of the deposited data

Results flagged for a closer look

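A sample far from the others of its group was found in 14 of 28 gene and group pairs, where chance picks out about 1 in 20. That rate may not hold for counts that differ as widely within a group as these do. The genes were chosen for high counts in some of these libraries and move together, so the number is no evidence about them. KDSH 6 was the highest of its group for all 7 genes: 1400032 normalised counts of Rn18s-rs5, 80179 of Mir6236, 602524 of Gm23935, 517931 of Lars2, 37.3 of Rmrp, 4418 of Rpph1 and 15168 of Rn7sk. KDEE 15, which the study kept, stood apart for 5 genes: 180676 of Rn18s-rs5, 113716 of Gm23935, 85124 of Lars2, 613.4 of Rpph1 and 1898 of Rn7sk. Rmrp stood apart in WTSH 7 at 78.6 and in WTEE 16 at 3.23 normalised counts, the latter from 4 counts. In WTSH both WTSH 4 and WTSH 7 were high, and no gene but Rmrp was picked out.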

How the results depend on the processing

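No paired analysis was possible because each replicate number occurs in 1 group only. With DESeq2's Wald test 2 (WTEE minus WTSH), 14 (KDEE minus KDSH), 118 (WTEE minus KDEE) and 20 genes (interaction) were called against 0, and with all 24 libraries 1 in WTEE minus WTSH; leaving out each library gave 0 to 1 there, the 1 without WTEE 13. With all 24 libraries the sign turned for Rn18s-rs5 (-3.97) and Rn7sk (-4.04) in WTEE minus WTSH, Rn18s-rs5 (-2.23), Rpph1 (-2.05) and Rn7sk (-2.08) in KDEE minus KDSH, and Gm23935 (-1.81) and Lars2 (-1.64) in the interaction; r with Rn18s-rs5 was then 0.97 for Mir6236, 0.98 for Gm23935 and 0.98 for Lars2. Leaving out 1 library turned the sign of the following. In WTEE minus WTSH the ranges were -0.85 to 3.71 (Mir6236), -0.47 to 3.53 (Gm23935), -0.59 to 3.502 (Lars2) and -1.10 to 3.85 (Rpph1). In KDEE minus KDSH they were -0.23 to 1.05 (Rn18s-rs5), -1.17 to 0.14 (Mir6236), -0.94 to 0.34 (Gm23935) and -1.11 to 0.21 (Lars2). In KDSH minus WTSH they were -1.87 to 1.44 (Rn18s-rs5), -2.24 to 2.47 (Mir6236), -1.81 to 2.24 (Gm23935), -2.02 to 2.23 (Lars2), -3.30 to 1.65 (Rpph1) and -2.61 to 1.13 (Rn7sk). In the interaction they were -0.48 to 2.84 (Rn18s-rs5), -0.59 to 4.12 (Mir6236), -0.41 to 3.64 (Gm23935), -0.42 to 3.84 (Lars2), -2.64 to 2.31 (Rpph1) and -1.75 to 1.99 (Rn7sk). The cause was not tested. The log2 folds of the 6 members in the 3 left-out libraries moved by less than 1 SD under each other scaling. This SD is that of each member over the 21 libraries, 1.85 (Lars2) to 2.41 (Rpph1). A change of scaling could hardly exceed so wide a spread. Scaled to the raw total, the log2 fold in WTSH 7 moved from 6.24 to 5.75 for Lars2 and from 7.22 to 6.79 for Rn18s-rs5. In WTSH 4 and WTSH 7 those of mt-Rnr1 and mt-Rnr2 moved by similar amounts. For mt-Rnr1 in WTSH 4 the move was from 2.76 to 2.32. Those moves exceeded 1 SD, which is 0.30 for both genes.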

Other observations

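The share of counts on the 4 rRNA-like members moved with the share of reads lying in more than 1 gene over the 21 kept libraries (r = 0.81, Spearman 0.91), and less closely with the share in no gene (r = 0.62, Spearman 0.46). The first share is of the counts on genes and the others are of those counts plus the unassigned reads, and the values are descriptions over 21 libraries without a test.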
